A study of Rattus norvegicus with 30 samples.

Results

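Potassium channel subunits were followed in rat sciatic nerve (SN) and dorsal root ganglia (DRG) after resection of the nerve. The members are all genes whose array name begins with Kcn, goes on with lower-case letters and ends in a number, leaving out Kcnj10. The rule uses names only and no measured value. It found 101 of the 41012 distinct probe sequences on the array, which belong to 86 genes, and 12 of these genes have several sequences. For each gene the sequence with the highest mean signal over all arrays was used, and other sequences are described for only some genes. The 86 genes make up 10 subfamilies by symbol. Of these genes, 80 could be tested in DRG, 76 in SN and 74 in both, and Kcna7, Kcnj1, Kcnj2 and Kcnk15 in neither because their signal was never well above background on all arrays of a day.

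Adult male Sprague-Dawley rats had a 1 cm segment of the left sciatic nerve removed. DRG of levels L4–6 and the proximal nerve stump, 0.5 cm long, were taken at 0, 1, 4, 7 and 14 d, and the 0 d groups are the uninjured controls. RNA of each sample was hybridized in 1 colour to an Agilent whole-genome rat array, with 3 arrays for each tissue and day, 30 in all. The study calls the 3 arrays biological replicates, but which rats each array holds is not stated, so the p-values measure only the spread between these arrays.

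Potassium channels let potassium leave the cell, set the resting potential and end the action potential. Voltage-gated subunits (Kv, genes Kcna to Kcnd, Kcnf to Kcnh, Kcnq, Kcns and Kcnv) assemble in groups of like subunits, often with beta, KCNE or KChIP subunits that alter gating or transport, and the silent subunits (Kcnf, Kcng, Kcns, Kcnv) act only in company of Kcnb subunits. Inward rectifiers (Kcnj) and leak channels with paired pore domains (Kcnk) act near rest, and Kcnma, Kcnn and Kcnt channels open with calcium or sodium ions. In myelinated axons Kcna1 and Kcna2 subunits lie under the myelin beside the node of Ranvier, and in sensory neurons potassium channels limit firing. Glia, vessels and immune cells carry other members, so in these bulk samples fewer cells of a type and less RNA per cell cannot be told apart.

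In SN, Kcna1, Kcna2 and Kcna5 were called lower and Kcna3 and Kcna6 higher. The probes of 4 of them are shown because each value below is the brightness of 1 such sequence. All are 60 bases long and are printed in the direction of the array file. On build rn4 they lie at chr4:163012003-163012062 (minus strand) for Kcna1, chr2:202563948-202564007 (plus strand) for Kcna2, chr4:162896330-162896389 (minus strand) for Kcna5 and chr4:163122829-163122888 (minus strand) for Kcna6, so that Kcna1, Kcna5 and Kcna6 are neighbours on the same strand of 1 chromosome.
Kcna1: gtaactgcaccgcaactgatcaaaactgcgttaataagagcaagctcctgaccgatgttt
Kcna2: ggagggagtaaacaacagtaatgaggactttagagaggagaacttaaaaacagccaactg
Kcna5: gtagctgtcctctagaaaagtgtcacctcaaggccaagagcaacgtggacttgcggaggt
Kcna6: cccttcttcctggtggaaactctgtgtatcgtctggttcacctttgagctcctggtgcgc

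The normalized signal used below is the log2 of the background-subtracted intensity minus the 75th percentile of its array, so that 0 is the 75th percentile and 1 unit is a doubling. Values of different probes are not set against each other. Calls required a change of over 2-fold and an adjusted p (Benjamini-Hochberg, over all sequences tested) under 0.05. Replicate arrays of a group correlated with r of at least 0.9847 over the sequences tested in both tissues. Between 26941 and 35573 sequences were well above background per array, fewest on replicates 2 and 3 of DRG 0 d. In both tissues no slide or scan day held a 0 d array together with an array of a later day of that tissue, so that injury and slide cannot be told apart in any comparison with 0 d, and the same 3 arrays of 0 d serve all 4 days. The neuron markers, 12 genes, summed to a signal of 9.83 to 10.12 in DRG over all days. In SN they were at 3.01 to 3.41 at 0 d and lower at 14 d, 2.17 to 2.72, where 7 of 11 tested were called lower and 2 higher. The 7 Schwann cell markers were at 9.62 to 9.83 in SN at 0 d and at 8.46 to 8.83 from 4 d on. The 6 macrophage markers were at 3.99 to 4.25 in SN at 0 d and at 5.28 to 6.65 later, and in DRG they went from 2.48 to 3.22 at 0 d to 4.19 to 4.35 at 7 d. All macrophage markers were detected in each group. The part of these cell types in the changes of single channels was not tested. SN replicate 1 of 0 d stood apart with a summed level of 10.47 for the 7 skeletal muscle markers against 6.69 and 7.16 on the other 0 d arrays, and results that rest on it are given without it too.

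Before injury, most channel genes had more signal in DRG, where the cell bodies of sensory neurons lie, than in the nerve. Of 72 genes tested, 45 were lower in SN and 4 were higher, and the median difference was -2.51 on the log2 scale. Of all 30743 sequences tested, 16.6% were lower and 21.9% were higher in SN. The 1 slide that held arrays of both tissues at 0 d had 3 SN arrays and only 1 DRG array, assumed to vary like the others, and gave 40 lower and 5 higher. Kcns1, a silent subunit of sensory neurons, had 2.6, 2.44 and 2.16 on the DRG arrays. It was not well above background on any SN array of 0 d and was at least 447-fold lower there. Kcna4, a fast inactivating subunit known from small sensory neurons, had 0.51, 0.08 and 0.31 in DRG and was likewise not well above background in SN on any day, at least 104-fold lower. Kcnh6, Kcnk18 and Kcnb2 were at least 42.8-fold, 38.6-fold and 27.8-fold lower in SN. Kcnk18 encodes TRESK, a leak channel of sensory neurons. Kcnk4, a mechanically gated leak channel, was well above background on 2 of 3 SN arrays and was lower by a log2 difference of -6.74 (SE 0.15).

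The 4 genes with more signal in SN were Kcnj13, Kcnk6, Kcnk5 and Kcnj8. Kcnj13, an inward rectifier of epithelial cells, had 0.37, 0.51 and 0.41 in SN against -3.19, -3.32 and -2.54 in DRG, 10.9-fold higher. Kcnk6 was 7.02-fold, Kcnk5 5.58-fold and Kcnj8, the pore of vascular ATP-sensitive channels, 5.5-fold higher in SN. For all 4 the arrays of the tissues did not overlap. Kcna1 and Kcna2, by contrast, had like signals in both tissues, with differences of -0.11 (SE 0.15) and -0.18 (SE 0.18).

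**Figure D1:**
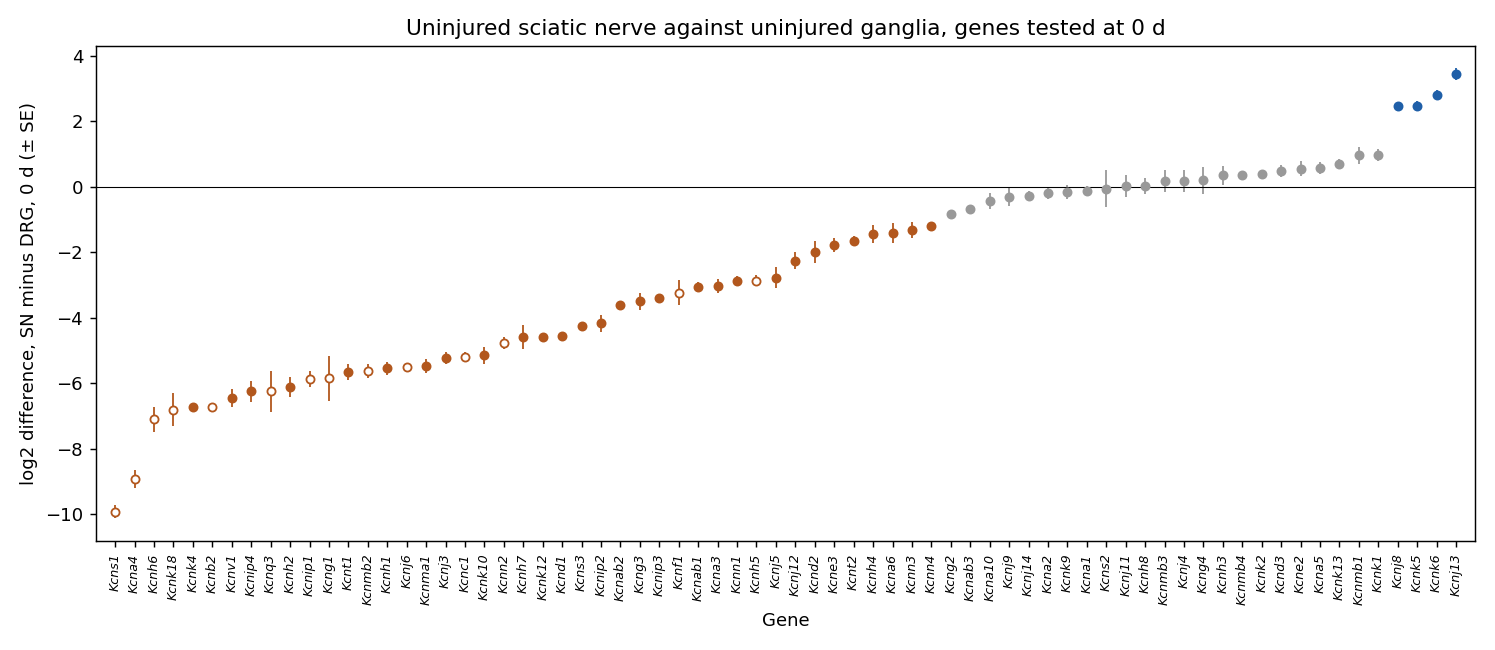
Log2 difference between uninjured SN and DRG (vertical axis, SN minus DRG, bars give the SE, 3 arrays per tissue) for 70 of the genes tested at 0 d, in order of size. Orange points were called lower in SN (open where no SN array was well above background, so that the difference is only a fitted value), blue points higher and grey points were not called; 43 of these genes are orange and 4 are blue.

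After resection more channel genes were called in the nerve than in the ganglia. On 1, 4, 7 and 14 d, 29, 21, 23 and 20 of the 76 genes tested in SN were higher and 9, 12, 9 and 10 were lower. Of all sequences tested in SN, 18.6%, 15.9%, 18.1% and 14.3% were higher on these days and 3.43%, 6.78%, 6.81% and 5.46% were lower. The median change of the channel genes was 0.71, 0.50, 0.44 and 0.34 against 0.11, 0.15, 0.15 and 0.16 over all sequences. Over the days 37 genes were higher at least once, 10 of them on all days, 15 were lower at least once, 2 of them on all days, and 24 were never called. Of all sequences tested in SN 27.3% were higher and 10.4% lower on at least 1 day. No gene was called in both directions.

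How many of them counted as higher depended on the filter and the normalization. Of the 37 genes, 16 were well above background on all 0 d arrays, 13 on none and 8 on some. The 13 and the 8 passed the filter only through days after injury. A stricter filter needed all 3 arrays of both days well above background. Of 50, 49, 51 and 50 genes, 13, 11, 10 and 7 were then higher and 8, 10, 9 and 9 lower. Shares of all sequences were not counted under that filter. With quantile normalization of the arrays, which moved the median of all sequences in SN from 0.11 to -0.08 at 1 d and from 0.15 to 0 at 4 d, 15, 15, 16 and 11 genes were higher and 12, 16, 14 and 12 lower over the 4 days. Of all sequences between 7.98% and 12.2% were then higher on a day and between 6.90% and 9.14% lower. With another background correction as well, normexp with quantile normalization (normexp in the text below), 4, 6, 4 and 3 were higher and 7, 10, 8 and 6 lower, beside 4.66%, 4.91%, 4.76% and 2.98% of all sequences higher and 1.81%, 4.18%, 4.31% and 3.39% lower. Kcnj5, Kcnj12, Kcne1, Kcne4 and Kcng2 are described below although the rule for named genes does not name them, and were chosen after their values were seen.

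**Figure D2:**
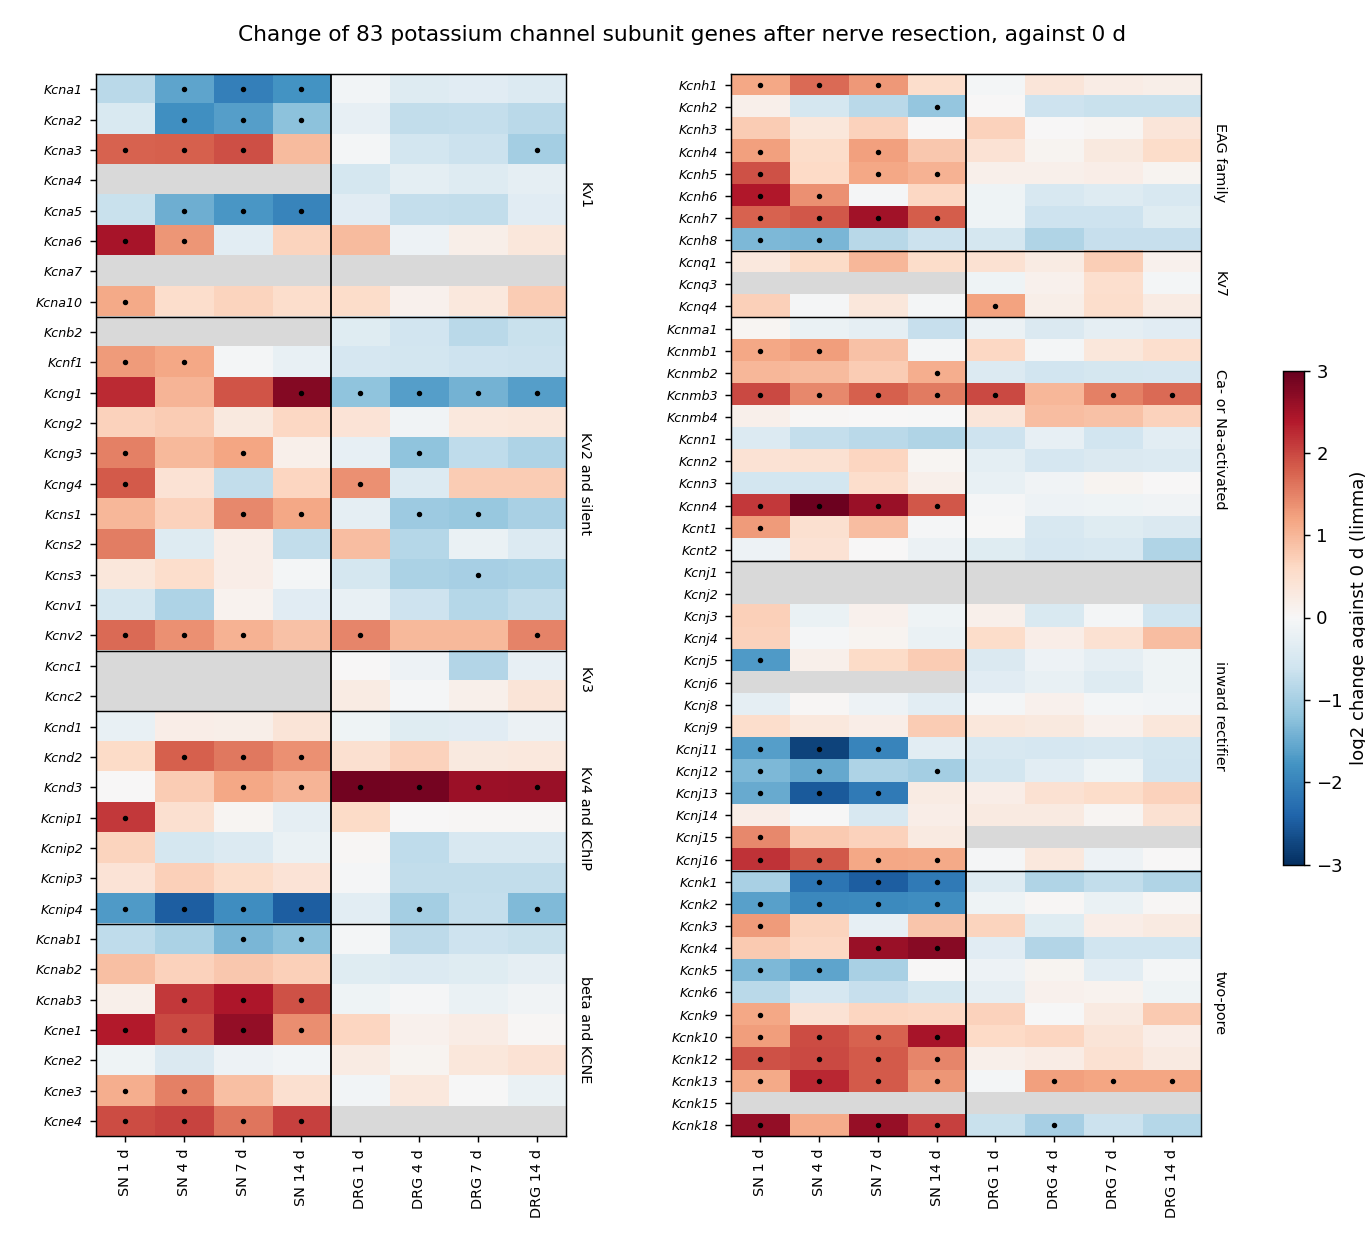
Log2 change against 0 d (colour, from -3 in blue to 3 in red) of 83 genes in rows, grouped by subfamily, on the 4 days after injury in SN and DRG in columns. Dots mark calls (adjusted p under 0.05 and over 2-fold) and grey cells were not tested; SN holds between 27 and 36 dots per day here and DRG 6 or 7.

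Kcna1, Kcna2 and Kcna5 were all lower in SN from 4 d on. Kcna1, the juxtaparanodal subunit, had normalized signals of 5.52, 5.58 and 6.07 in SN at 0 d, of 4.28, 3.99 and 4.15 at 4 d, of 3.86, 3.53 and 3.61 at 7 d and of 3.71, 4.28 and 3.79 at 14 d. All arrays from 4 d on were below all arrays of 0 d. The change was -2.05 (SE 0.19, adjusted p = 2.42e-06) at 7 d, a 4.15-fold fall, and the second Kcna1 sequence fell by 1.38 at that day. Kcna2, its usual partner, went from -1.98, -1.89 and -1.35 at 0 d to -3.25, -3.59 and -3.93 at 4 d, a change of -1.85 (SE 0.20), and a change of -1.24 at 14 d. Kcna5, known from Schwann cells and vessels, changed by -1.46, -1.74 and -1.99 (SE 0.21 each) at 4, 7 and 14 d, its largest fall coming last. None of these was called at 1 d. Kcnab1, which encodes a beta subunit of Kcna channels, joined them with -1.38 (SE 0.15) at 7 d and -1.23 at 14 d, while Kcnab2, the main beta subunit of axons, was not called and had 0.80 (SE 0.15) at 7 d.

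Outside that family, 2 leak channel genes fell by as much as 5.59-fold. Kcnk1 (TWIK-1) had 1.98, 1.66 and 2.29 in SN at 0 d and -0.31, -0.74 and -0.47 at 7 d, a change of -2.48 (SE 0.22, adjusted p = 1.99e-06) or 5.59-fold. Kcnk2 (TREK-1), which responds to stretch and lipids, was lower on all days, from 2.16, 2.29 and 2.55 at 0 d to 0.78, 0.95 and 0.4 at 1 d and 0.48, 0.29 and 0.45 at 4 d. Its changes were -1.63, -1.93, -1.92 and -1.86 (SE 0.16 each), and the arrays of all 4 days lay below those of 0 d. Kcnip4, a KChIP subunit, was also lower on all days (-1.70, -2.48, -1.86 and -2.48, SE 0.38) but was well above background on only 1 array at 4 d and at 14 d, and under normexp its values were between -0.88 and -0.79.

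**Figure D3:**
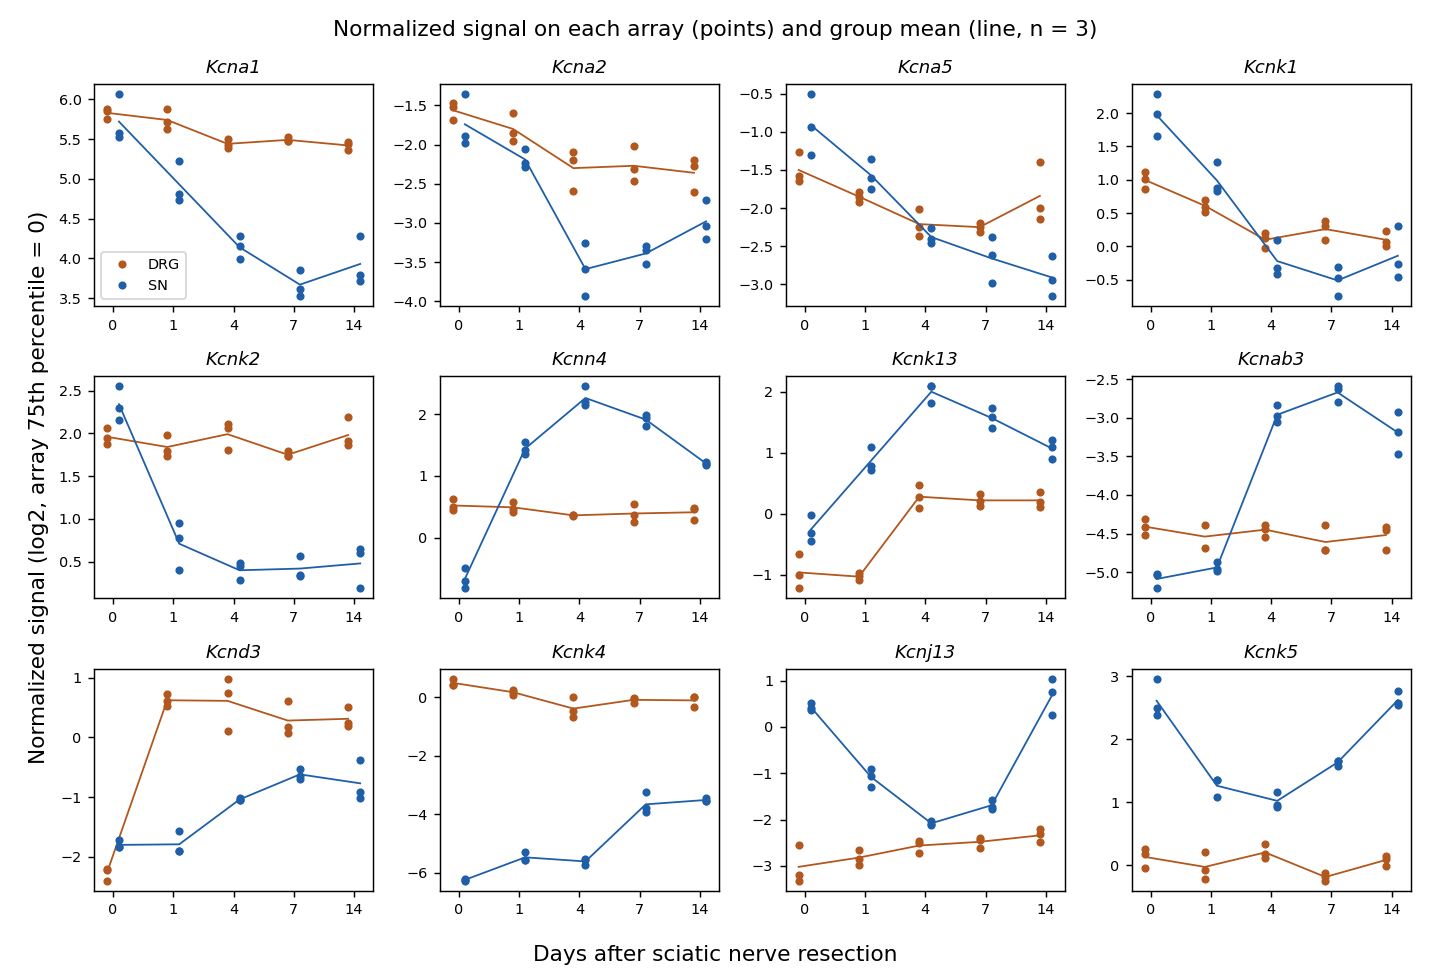
Normalized signal (vertical axis, log2, array 75th percentile at 0) against days after resection (horizontal axis, unevenly spaced days drawn at even steps) for 12 genes, with a point per array and a line through the group means of 3 arrays, SN in blue and DRG in orange. Kcna1, Kcna2, Kcna5, Kcnk1 and Kcnk2 fall in SN, Kcnn4, Kcnk13 and Kcnab3 rise there, Kcnd3 rises most in DRG, and Kcnj13 and Kcnk5 fall in SN and are back at 14 d.

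A second group fell in SN and was back at 14 d. Kcnj13 had 0.37, 0.51 and 0.41 at 0 d, then -2.04, -2.1 and -2.11 at 4 d, and again 0.26, 0.75 and 1.04 at 14 d. The 4 d arrays were below all others of those days and those of 14 d lay around the 0 d level. It changed by -2.51 (SE 0.16, adjusted p = 1.62e-07) at 4 d and by 0.25 (adjusted p = 0.194) at 14 d. Between 4 and 14 d it was higher by 2.77 (SE 0.16, limma adjusted p = 1.4e-06). That difference does not use the 0 d arrays, but its SE rests on a spread estimated with them. Kcnk5 (TASK-2), a leak channel sensitive to pH, had 2.38, 2.96 and 2.49 at 0 d, 1.16, 0.92 and 0.96 at 4 d, and again 2.57, 2.54 and 2.77 at 14 d. Its changes over the days were -1.35, -1.59, -0.98 and 0.02 (SE 0.14), and it was higher by 1.61 from 4 to 14 d. In that comparison 4 of 76 genes were higher (Kcnj11, Kcnj13, Kcnk4, Kcnk5) and 5 were lower (Kcne3, Kcnf1, Kcnh1, Kcnmb1, Kcnn4), where 1.81% and 2.07% of all sequences were. No slide or scan day held both days in SN, so that these days and their slides cannot be told apart either.

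The 250 bases before the start of Kcnj13 and Kcnk5 are shown because both genes took the same course. They come from RefSeq, build GRCr8, at chr9:95518987-95519236 (minus strand) and chr15:4171375-4171624 (plus strand). Capitals mark the only letters found of 4 motifs that were searched on both strands: AP-1 (TGACTCA), CRE (TGACGTCA), GC box (GGGCGG) and TATA box (TATAAA).
Kcnj13: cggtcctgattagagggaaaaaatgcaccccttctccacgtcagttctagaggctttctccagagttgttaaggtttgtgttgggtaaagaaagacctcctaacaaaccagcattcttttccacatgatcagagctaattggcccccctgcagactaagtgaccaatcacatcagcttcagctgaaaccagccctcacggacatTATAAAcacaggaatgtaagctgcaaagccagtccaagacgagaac
Kcnk5: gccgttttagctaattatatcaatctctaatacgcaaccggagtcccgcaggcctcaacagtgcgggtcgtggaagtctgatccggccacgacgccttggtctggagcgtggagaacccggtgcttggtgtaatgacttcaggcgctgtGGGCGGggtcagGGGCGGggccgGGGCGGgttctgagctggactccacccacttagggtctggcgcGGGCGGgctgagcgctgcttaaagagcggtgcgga
Kcnj13 holds 1 TATA box and Kcnk5 holds 4 GC boxes, so these letters are not shared. Of 33469 RefSeq promoters of rat, 12.9% hold the TATA box, 30.5% the GC box, 4.05% the AP-1 letters and 1.59% the CRE letters. Of the 86 genes 57 have an entry, and 2 (Kcnj1, Kcnj13), 29, 1 (Kcne1) and 0 of them hold these letters in the same order. A gene was counted if any of its promoters held the letters, whereas the percentages count single promoters.

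Kcnj11, the pore of ATP-sensitive channels of muscle and nerve cells, resembled this course but rested in part on 1 array. It had 0.83, -1.28 and -1.22 in SN at 0 d, the first being replicate 1 with its high muscle markers, then -2.94, -3.59 and -3.48 at 4 d and -0.9, -0.81 and -0.91 at 14 d. The change was -2.78 (SE 0.43, adjusted p = 0.000151) at 4 d and -2.09 without that array, and at 1 d it was -1.65 and -0.96, no longer called. It rose by 2.47 from 4 to 14 d, a difference that does not use that array, though the spread behind its call does. The muscle inward rectifier Kcnj12 also had its highest signal there, 0.84 against -0.73 and -0.54. It fell by 1.53 at 4 d, and by 1.04 without that array. Kcnj5, of the acetylcholine-gated atrial channel, had -2.47 there against -4.63 and -4.43; its change at 1 d was -1.70 with and -1.02 without that array, and at 7 and 14 d it went from 0.57 and 0.77, not called, to 1.25 and 1.46, called. The summed muscle markers of SN were at 6.69 to 8.02 at 1 d, at 2.71 to 4.58 at 4 d and at 6.18 to 7.94 at 14 d. Their part in the course of Kcnj11 was not tested.

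**Figure D4:**
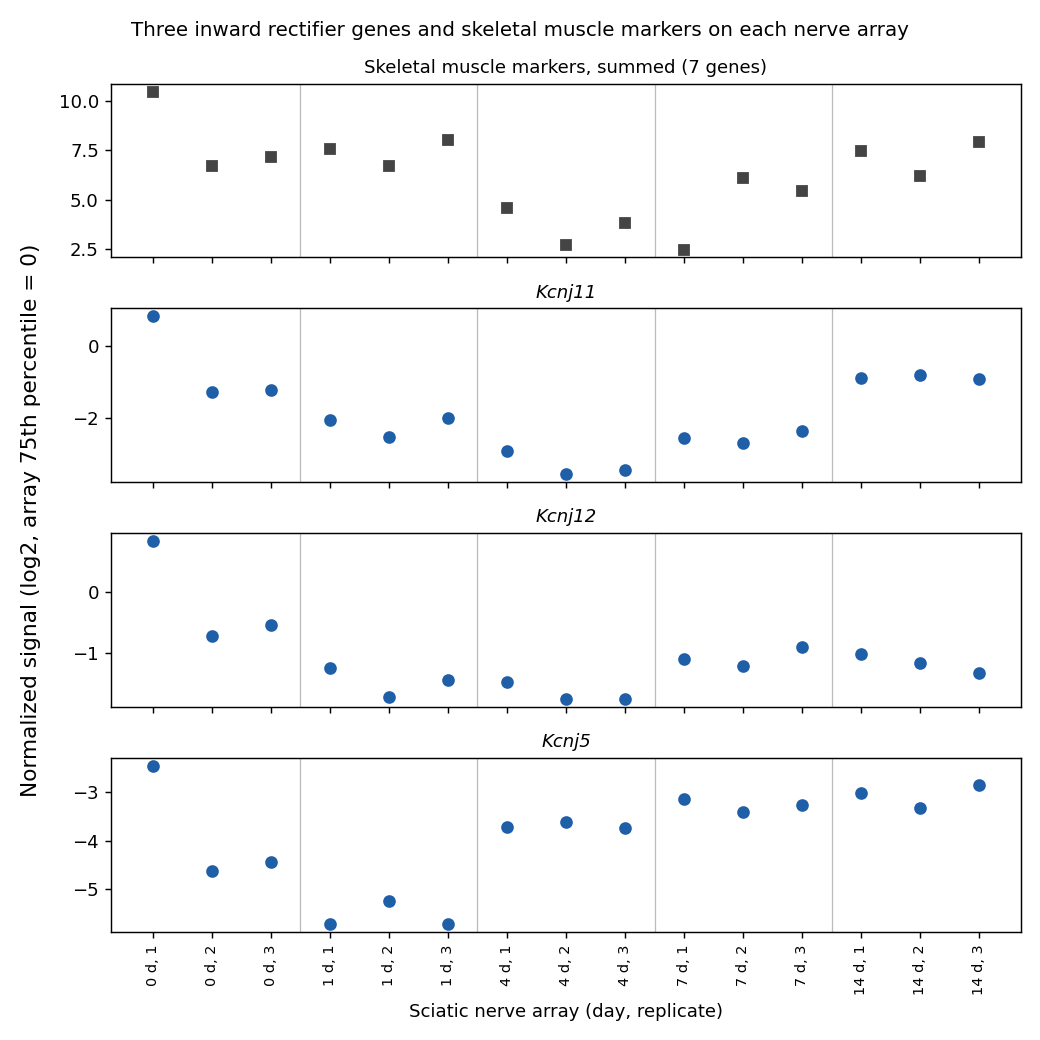
Normalized signal (log2) on each of the 15 SN arrays, ordered by day and replicate, for the summed skeletal muscle markers (7 genes, squares) and for Kcnj11, Kcnj12 and Kcnj5 (circles). Replicate 1 of 0 d is the highest array in all 4 panels, at 10.47 for the markers and 0.83 for Kcnj11.

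Kcnn4 rose most among the bright genes of SN. It encodes the calcium-activated channel KCa3.1, known from macrophages and lymphocytes among other cells. Its signal in the uninjured nerve was -0.71, -0.49 and -0.82, then 1.54, 1.36 and 1.42 (1 d), 2.14, 2.2 and 2.45 (4 d), 1.93, 1.98 and 1.8 (7 d) and 1.22, 1.18 and 1.19 (14 d). Every array after injury was above all arrays of 0 d, with the peak at 4 d. The changes were 2.11, 2.93, 2.58 and 1.87 (SE 0.10 each), 7.63-fold at 4 d (adjusted p = 2.65e-09), and it was lower again by -1.06 from 4 to 14 d, a value at the threshold that was under 2-fold with normexp (-0.99) and without replicate 3 of 4 d (-0.97). Uninjured DRG had more of its signal than SN, with a mean of 0.52 against -0.67, called at 2.28-fold. After injury it changed in DRG by between -0.16 and -0.03 and was not called. The summed macrophage markers of SN were at 6.32 to 6.65 at 4 d and at 5.28 to 5.66 at 14 d, and their part in the rise was not tested.

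Kcnk13 (THIK-1), a leak channel known from microglia, also had its highest change at 4 d. It had -0.45, -0.02 and -0.31 in SN at 0 d and 1.81, 2.09 and 2.09 at 4 d, with changes of 1.13, 2.25, 1.83 and 1.33 (SE 0.15 each). It was called in DRG too, at 1.24, 1.18 and 1.18 (SE 0.14) on 4, 7 and 14 d but at -0.07 on 1 d. Its partner Kcnk12 (THIK-2) rose by 1.90, 1.98, 1.85 and 1.46 (SE 0.14) in SN and was not called in DRG, where its highest change was 0.46. With normexp only its 4 d change, 1.03, stayed over 2-fold. Kcnab3, a beta subunit, was not changed beyond its spread at 1 d (0.15, SE 0.13) and then rose by 2.13, 2.42 and 1.90. At 7 d its signals were -2.59, -2.8 and -2.63 against -5.21, -5.02 and -5.04 at 0 d, and with normexp only that day, at 1.04, stayed over 2-fold.

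Kcna3, a subunit known from lymphocytes and macrophages among other cells, rose in SN at 1, 4 and 7 d. Its signals of -5.47, -5.17 and -5.16 in SN at 0 d were exceeded by all arrays of 1, 4 and 7 d, which lay between -3.67 and -3.16, and the changes were 1.76, 1.80 and 1.93 (SE 0.17). With normexp they were 0.60, 0.74 and 0.80, under 2-fold. Uninjured DRG had 8.16-fold more of its signal than SN (limma, adjusted p = 1.28e-11). In DRG it was lower at 14 d by -1.01, a call lost when replicate 2 or 3 of 0 d or replicate 3 of 14 d was left out.

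Kcna6 had the largest change among the Kcna genes at 1 d, 2.48 (SE 0.36, adjusted p = 0.000105), but it followed the slides. In SN its signal was between -2.72 and -2.01 on the 5 arrays of the slides that hold 1 d arrays (1 d and replicates 1 and 2 of 4 d) and between -5.07 and -3.56 on the other 10. Replicate 3 of 4 d, on another slide, had -4.39 against -2.72 and -2.65. In DRG the 3 arrays of 1 d, all on those slides, lay between -2.58 and -1.84 and the other 12 between -3.68 and -2.56, which overlap at their edge. The silent subunit gene Kcng4 had the same split in SN, between -2.88 and -2.04 on those slides and between -4.93 and -3.05 on the others. Kcnh6, of the EAG family, lay between -6.13 and -5.66 and between -9.12 and -7.03. In DRG the ranges of Kcng4 and Kcnh6 on these slides overlapped those on the others. All SN arrays of 1 d lay on 1 slide, so that day and slide cannot be told apart for these genes.

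Kcnmb3, a beta subunit of the large calcium-activated channel, was higher in both tissues. It rose by 1.98, 1.43, 1.79 and 1.57 (SE 0.24) in SN and by 1.98, 1.52 and 1.70 (SE 0.42) at 1, 7 and 14 d in DRG. It is dim, and with normexp its values were 0.85, 0.54, 0.73 and 0.65 in SN and 0.93, 0.64 and 0.69 in DRG, all under the 2-fold threshold. With quantile normalization the call at 7 d in DRG was lost as well (1.17, limma adjusted p = 0.0644). Kcnq3, a subunit of the M channel that brakes repetitive firing, was not called in DRG and was not well above background in SN except on 1 array of 14 d.

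Kcnk4 (TRAAK) and Kcnk10 (TREK-2), relatives of Kcnk2, rose in SN. Kcnk4 was at -6.21, -6.27 and -6.24 in SN at 0 d, at -5.57, -5.53 and -5.74 at 4 d and at -3.54, -3.55 and -3.44 at 14 d. It thus rose late, by 0.63 at 4 d, 2.59 at 7 d and 2.73 (SE 0.15) at 14 d, and by 2.10 from 4 to 14 d. With quantile normalization Kcnk4 kept 1.97 and 2.13 at 7 and 14 d, and with normexp it had 0.89 and 0.98. Kcnk10, well above background on 1 of the 3 arrays of 0 d, rose by 1.25, 1.95, 1.78 and 2.48 (SE 0.33). With normexp it had 0.16, 0.46, 0.39 and 0.71, under 2-fold on all days. Its call at 1 d was also lost with quantile normalization (0.36) and without replicate 2 of 0 d or of 1 d. Kcnh7, of the EAG family, was at -5.87, -6.45 and -6.41 in SN at 0 d, where only 1 array was well above background, and at -3.53, -3.82 and -3.8 at 7 d. Its changes were 1.77, 1.87, 2.53 and 1.82 (SE 0.49), and with normexp 0.37, 0.41, 0.81 and 0.49, none of them called. At 1 d the call was lost with quantile normalization as well (1.02, limma adjusted p = 0.0756). Kcnd2, a fast inactivating subunit, rose by 1.79, 1.58 and 1.36 (SE 0.38) at 4, 7 and 14 d, and at 14 d the call was lost without replicate 1 of 0 d.

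Other genes of SN left the background only after injury, and a rise can then be given only as a bound. Kcng1 was well above background on no array of 0 d and on all later arrays. It was called at 14 d, at least 3.78-fold higher (adjusted p = 0.024), and its arrays of that day had -1.48, -6.56 and -5.41. Without replicate 1 of 14 d the change was 1.24 (SE 0.38, adjusted p = 0.0183), still called, and without replicate 1 or 3 of 0 d the adjusted p was 0.0543 and 0.0626, no longer called. Quantile normalization (adjusted p = 0.0951) and slide as a random block (0.0971) lost the call too. Kcnk18 was at least 2.15-fold higher at 1 d and 2.1-fold at 7 d. Kcnj16 was at least 1.97-fold higher at 1 d and 1.61-fold at 4 d, Kcne1 at least 1.66-fold at 7 d, Kcnh6 at least 1.65-fold and Kcnip1 at least 1.25-fold at 1 d, Kcns1 at least 1.24-fold at 7 d and Kcne4 at least 1.18-fold at 14 d. Kcnip1 was well above background in SN on the 1 d arrays alone. Most of these bounds are under the 2-fold threshold, and with normexp Kcnj16, Kcnh6, Kcnip1 and Kcns1 changed by less than 0.30 on these days.

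By subfamily, and beside the 27.3% and 10.4% of all sequences given above, the two-pore group of SN had 7 of 11 tested genes higher and 3 lower on some day. The EAG family (Kcnh) had 5 of 8 higher and 2 lower, and Kcnb with its silent partners 6 of 11 higher and 1 lower. Kcna genes were split with 3 higher and 3 lower of 6. Of the 11 calcium- or sodium-activated genes 5 were higher and none was lower, whereas of 11 inward rectifiers 2 were higher and 4 lower. In DRG, where 16.6% of all sequences were higher and 0.946% lower on at least 1 day, no gene of the EAG, inward rectifier, Kv3 or beta and KCNE groups was called, and 2 higher and 4 lower genes lay among the 12 of Kcnb and its silent partners.

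In DRG few genes passed 2-fold. Of 80 genes tested, 6, 3, 4 and 5 were higher and 1, 5, 3 and 3 lower on the 4 days. Of all sequences 7.43%, 6.04%, 6.58% and 13.0% were higher and 0.169%, 0.506%, 0.326% and 0.460% were lower. The medians of the channel genes were -0.07, -0.20, -0.20 and -0.12 against 0.09, 0.14, 0.08 and 0.13 over all sequences. Falls without a fold threshold were more frequent: at an adjusted p under 0.05, 12, 30, 29 and 28 genes were lower and 12, 7, 10 and 12 higher. Of all sequences 3.28%, 8.63%, 6.87% and 9.63% were then lower and 14.9%, 22.6%, 16.9% and 28.9% higher. This count was added after the data had been seen. With quantile normalization 19, 31, 31 and 35 genes were lower, beside between 8.06% and 19.0% of all sequences on a day. Without replicate 1 of 0 d, which lay on another slide than replicates 2 and 3, 6, 27, 24 and 26 genes were, beside 1.98%, 6.86%, 5.86% and 7.77%. The summed neuron markers of DRG were at 10.08 to 10.12 at 0 d and at 10.01 to 10.11 at 4 d. They were at 9.92 to 9.99 at 7 d and at 9.83 to 9.93 at 14 d. The Schwann cell markers were at 8.55 to 8.67 at 0 d, at 8.33 to 8.43 at 4 d and at 8.15 to 8.41 at 7 d. The fibroblast markers were at 8.18 to 8.43 at 0 d and at 8.32 to 8.46 at 4 d. None of the 12 neuron markers was called in DRG, and the part of these cell types in the falls was not tested. No gene was called between 4 and 14 d by limma, where 0.240% of all sequences were higher and 0.0543% lower; 10 genes had an unadjusted p under 0.05, Kcnk3 the lowest with 0.000527 (adjusted p = 0.0573), and the methods' t-test called 1 at the unadjusted threshold.

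Kcnd3 showed the largest change of the ganglia. It is named for a fast inactivating subunit of sensory neurons. Its signal in uninjured DRG was -2.2, -2.4 and -2.22, then 0.72, 0.52 and 0.61 (1 d), 0.1, 0.74 and 0.98 (4 d), 0.6, 0.08 and 0.17 (7 d) and 0.5, 0.24 and 0.19 (14 d). Every array after injury lay above those of 0 d. The changes were 2.89, 2.88, 2.56 and 2.58 (SE 0.20 each), 7.42-fold at 1 d (adjusted p = 2.12e-06), and they were between 2.22 and 2.53 with normexp. In SN it was 0.00 at 1 d and rose by 1.17 at 7 d and 1.02 at 14 d. With normexp these were 0.99 and 0.85, under 2-fold, and at 14 d so were the values with quantile normalization (0.92) and without replicate 3 of that day (0.83). Its second sequence rose too, by 2.38, 2.13, 2.20 and 1.49, and was not tested in SN. The identity of both probes is uncertain: per the array file the first lies at chr3:128922797-128922856 (plus strand, rn4), and the second on the same chromosome 3, whereas RefSeq places Kcnd3 on chromosome 2.

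Kcng1 fell in DRG on all days. It encodes a silent subunit, and its signal of -1.22, -1.25 and -1.67 at 0 d was above all later arrays, which lay between -3.19 and -2.17. The changes were -1.21, -1.66, -1.42 and -1.66 (SE 0.19 each), 3.17-fold at 14 d (adjusted p = 5.91e-05). Among the other silent subunits, Kcns1, Kcns3 and Kcng3 were also called lower. Kcns1 had 2.6, 2.44 and 2.16 at 0 d and 1.35, 1.11 and 1.31 at 7 d, a change of -1.14 (SE 0.13, adjusted p = 8.07e-05). It was at -1.08 and -0.98 on 4 and 14 d, on either side of the 2-fold threshold. Kcns3 had 2.99 on all 3 arrays of 0 d and 1.91, 2.05 and 2 at 7 d (-1.0, SE 0.13), and Kcng3 changed by -1.21 (SE 0.20) at 4 d. Kcnb2, a delayed rectifier subunit, had -0.82 (SE 0.09, adjusted p = 6.87e-05) at 7 d. Kcng4 went the other way at 1 d, 1.37 (SE 0.37, adjusted p = 0.0239), a call lost without replicate 1 or 2 of 0 d or replicate 1 of 1 d.

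Kcnip4 fell in DRG by -1.01 at 4 d and -1.32 (SE 0.23) at 14 d and Kcnk18 by -1.0 (SE 0.18) at 4 d. Both are near the threshold, and at 4 d leaving out DRG replicate 3 of that day put both under 2-fold. That array decided much of the day: without it 4 genes were called at 4 d, and without DRG replicate 1 of 4 d 13 were, against 8. Without DRG replicate 1 of 7 d, 4 genes were called at 7 d against 7. Several members known from sensory neurons changed in DRG by less than 2-fold. Kcna1 changed by -0.41 (SE 0.08, adjusted p = 0.00178) and Kcna2 by -0.80 (SE 0.16, adjusted p = 0.00255) at 14 d, both lower than on the 0 d arrays without overlap. Kcna4 had -0.28 (adjusted p = 0.139), Kcnma1, the large calcium-activated channel, -0.33 (SE 0.09) and Kcnt1, sodium-activated, -0.44 (SE 0.13) at 14 d. Kcnmb4, a neuronal beta subunit, went up by 0.93, 0.87 and 0.70 (SE 0.09) at 4, 7 and 14 d, under 2-fold but with no overlap with 0 d.

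The difference between the changes of nerve and ganglia was tested itself. At an adjusted p under 0.05, 25, 31, 26 and 20 of 74 genes moved up in SN relative to DRG over the 4 days, and 10, 14, 14 and 7 moved down. Of all 33806 sequences tested, 5375, 6793, 5956 and 4354 moved up and 6664, 8516, 6913 and 6547 moved down. In either direction 35.6%, 45.3%, 38.1% and 32.2% of all sequences differed, beside 35, 45, 40 and 27 of the 74 channel genes. Shares of all sequences were not counted for the slide settings that follow. With slide as a fixed block 20, 30, 28 and 25 genes differed, and within the slides that hold both tissues, 8 arrays per day, 12, 12, 20 and 16. In that comparison DRG had 1 array at 0 d, and on the later day 1 tissue had 1 array (DRG at 1 and 7 d, SN at 4 and 14 d), so that the within-slide values below have no replicate check of those arrays, which are assumed to vary like the others. Kcnn4 differed by 3.10 (SE 0.13, adjusted p = 1.02e-13) at 4 d and by 3.38 within slide. Kcnd3, with the uncertain identity given above, differed by -2.89 (SE 0.25) at 1 d and by -2.91 within slide. Kcnj13 differed by -2.97 at 4 d (within slide -3.17), Kcnk2 by -1.96 at 4 d (-1.94), Kcna1 by -1.71 at 7 d (-1.72) and Kcnk4 by 3.33 at 14 d (3.54). Kcna6 at 4 d differed by 1.47 (SE 0.45) but by -0.18 within slide.

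Across days 6 genes were called higher in both tissues, among them Kcnd3, Kcng4, Kcnk13, Kcnmb3 and Kcnv2, and Kcnip4 lower in both. Of the 33806 sequences tested in both tissues 11.9% were higher in both and 0.296% lower in both. Another 5 were higher in SN and lower in DRG (Kcna3, Kcng1, Kcng3, Kcnk18, Kcns1), and none was the reverse, where 0.293% and 0.482% of all sequences had these patterns. In SN at 0 d Kcng1, Kcnk18 and Kcns1 were well above background on no array and Kcng3 on 1. Those genes passed the filter of SN only through later days, where they are higher. The DRG call of Kcna3 was lost without single arrays, as given above. On the same day only Kcns1 at 7 d and Kcng1 at 14 d were called in opposite directions, as were 0.396% of all sequences on some day. Kcns1 changed by -1.14 in DRG and by a fitted 1.43 in SN, where no array of 0 d was well above background and the rise has only the bound given above. In SN it was no longer called at 7 d with quantile normalization (0.61) or normexp (0.02).

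**Figure D5:**
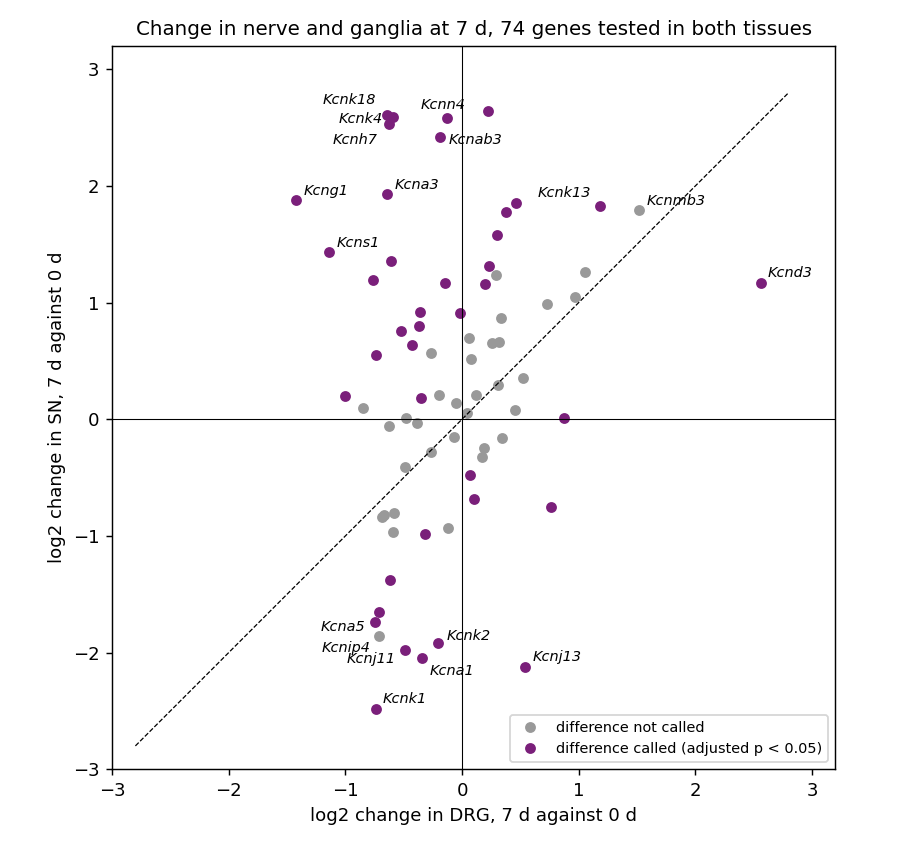
Log2 change at 7 d against 0 d in SN (vertical axis) against DRG (horizontal axis) for the 74 genes tested in both tissues, purple where the changes differ at an adjusted p under 0.05 and grey elsewhere, with equal changes on the dashed line. Kcnn4 (2.58 in SN, -0.13 in DRG) lies high on the left, Kcnk1 (-2.48 and -0.74) lowest and Kcnd3 (1.17 and 2.56) far right.

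Several members stayed under 2-fold or under the background in the nerve on all days, and some of them passed the adjusted p alone. Kcnj8 was at 2.76, 2.73 and 2.8 in SN at 0 d and changed by between -0.31 and 0.04 (SE 0.12). Kcnk6 was lower by between -0.82 and -0.50 (SE 0.11), with an adjusted p of 0.0015 or less on each day (limma). Kcnj3, a G protein-gated inward rectifier, had 0.72 (SE 0.21, adjusted p = 0.0113) at 1 d and between -0.20 and 0.14 later. Kcnma1 had between -0.70 and 0.06 (SE 0.27) and Kcns3 between -0.06 and 0.52. Kcnb2 and Kcna4 were not well above background on any SN array. Kcng2, with 0.29 at 7 d, has another sequence that rose by 2.0 there.

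Among related genes, those encoding partners of potassium channels (13 of 15 on the array, anchoring proteins and accessory subunits) had no call in DRG on any day. In SN 0 of 12 were higher and 1, 3, 3 and 1 lower on the 4 days. Lgi1, a secreted protein of the juxtaparanode, was lower on all of them, by -1.72 at 4 d, Amigo1 by -1.44 at 7 d, and Abcc8, the sulfonylurea receptor that joins Kcnj11, by -1.48 at 4 d. Of 17 sodium and Hcn channel genes, 15 were tested in SN, where 5, 3, 4 and 2 were higher and 3, 5, 4 and 2 lower on the 4 days, to be read against the shares of all sequences given above for SN. In DRG at most 2 were higher and 1 lower on a day.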

How the data were processed

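RNA of DRG and SN was labelled in 1 colour and hybridized to 30 arrays, 3 per tissue and day. The authors scanned them with Agilent Feature Extraction 10.5.1.1, and the deposited intensity values are background-subtracted signals per spot. A deposited table of log2 values, normalized by the authors, was used only as an alternative. No column belonged to another series. Columns of the scanner files gave probe names and rn4 positions.

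Flagged spots were dropped, spots of a sequence averaged and each array's 75th percentile subtracted on the log2 scale. Sequences entered the test if some day of the tissue had all 3 arrays well above background. limma 3.58.1 in R 4.3.3 was fitted on the 15 arrays of a tissue, and on all 30 for unequal changes and 0 d, over 34977 sequences in DRG and 35163 in SN. Calls needed a Benjamini-Hochberg adjusted p under 0.05 and over 2-fold (unequal changes: the adjusted p alone). Where a group had no array well above background, a fold is a bound from the lowest detected signal of each array. Precision is limited by the number of arrays. Of the 101 sequences 93 matched RefSeq.

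Named genes were up to 12 with the largest called change per tissue, up to 5 with the largest unequal change per day and those called in opposite directions, up to 6 in each direction at 0 d, and a list with known roles in nerve, of which Kcnc4 and Kcnq5 had no probe under the naming rule. The members, lists and tests were chosen with earlier results of these data known. Some genes counted in the totals are not reported here by name and are left out of the plots that label every gene. The code was tested on simulated data. Alternatives were other normalizations and filters, the methods' t-test, blocks of replicate number and slide, and leaving out each array.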

Additional observations from a re-analysis of the deposited data

Results flagged for a closer look

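For 21 differences between the change in SN and the change in DRG, tested as an interaction over all 30 arrays with limma, the test of the difference itself was past an adjusted p of 0.05 and the gene was among the 5 largest of its day or called in opposite directions. At 1 d the difference (SN change minus DRG change, log2) was 3.45 (SE 0.98, adjusted p = 0.0086) for Kcng1, 3.31 (SE 0.71, adjusted p = 0.00102) for Kcnk18 and 2.55 (SE 0.54, adjusted p = 0.000921) for Kcnh6. It was 2.19 (SE 0.29, adjusted p = 6.72e-06) for Kcnj16 and -2.89 (SE 0.25, adjusted p = 2.39e-08) for Kcnd3, whose probe identity is uncertain. All but Kcnd3 were not well above background on any SN array of 0 d, so that their sizes are fitted values and no bounds.

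At 4 d the difference was 3.10 (SE 0.13) for Kcnn4, -2.97 (SE 0.24) for Kcnj13, 2.67 (SE 0.98, adjusted p = 0.0307) for Kcng1, 2.49 (SE 0.52) for Kcnh7 and 2.36 (SE 0.31) for Kcna3. At 7 d it was 3.30 (SE 0.98) for Kcng1, 3.25 (SE 0.71) for Kcnk18, 3.17 (SE 0.22) for Kcnk4, 3.16 (SE 0.52) for Kcnh7, 2.71 (SE 0.13) for Kcnn4 and 2.57 (SE 0.30) for Kcns1. Kcng1, Kcnk18 and Kcns1 are again fitted values, since no SN array of 0 d was well above background. At 14 d it was 4.41 (SE 0.98) for Kcng1, where replicate 1 of SN stood apart and the value without it was 2.91. It was 3.33 (SE 0.22) for Kcnk4, 2.90 (SE 0.71) for Kcnk18, 2.27 (SE 0.36) for Kcnk10 and 2.19 (SE 0.52) for Kcnh7 on that day. The differences of Kcng1 lost their call with slide as a fixed block on all 4 days (adjusted p = 0.155, 0.252, 0.0917 and 0.0987), and at 4 d also with slide as a random block (0.0509), with quantile normalization (0.0885) and without any 1 of 6 of the 12 arrays (0.0502 to 0.086).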

How the results depend on the processing

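The counts of genes called moved by over 1.5 times as follows, and the cause was not tested except where fewer genes or arrays entered. With normexp and quantile normalization 2, 4 and 5 genes were called in DRG at 1, 7 and 14 d, 11, 16, 12 and 9 in SN at 1, 4, 7 and 14 d, 4 in SN between 14 and 4 d, and 23 differed between the tissues at 1 d. With a stricter filter on dim probes, which tests fewer genes, the counts were 3 and 5 in DRG at 1 and 14 d, 21, 21, 19 and 16 in SN, 28 between the tissues at 0 d, and 20, 29 and 17 unequal changes at 1, 4 and 14 d. The methods' t-test after Benjamini-Hochberg gave 2, 2 and 5 in DRG at 1, 4 and 14 d and 19 in SN at 14 d, and unadjusted it gave 1 in DRG between 14 and 4 d. With only the arrays compared, 4 were called in DRG at 1 d. With no fold threshold, chosen after seeing the data, 24, 37, 39 and 40 were called in DRG. With slide as a fixed block 20 changes were unequal at 1 d, and within slide 12, 12, 20 and 16. Slide could be no fixed block within a tissue, where no slide holds 0 d and another day.

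Leaving out 1 array gave 5 to 9, 4 to 13, 4 to 8 and 7 to 11 genes in DRG on the 4 days, 35 to 40, 31 to 36, 32 to 35 and 23 to 33 in SN, 7 to 11 in SN between 14 and 4 d, 29 to 39, 42 to 46, 38 to 42 and 26 to 31 unequal changes, and 49 to 50 at 0 d. With the replicate block the counts were 7, 8, 7 and 8 in DRG and 38, 32, 32 and 30 in SN, and 2 of 261 single values lost their call. Counting a gene if any of its sequences was called gave 7, 9, 8 and 9 genes in DRG and 39, 35, 33 and 31 in SN. In DRG at 14 d 6 genes were then higher and 4 lower, 9 in all, so that sequences of the same gene were called in opposite directions. Deviations of same-numbered arrays from their group means had a mean r of -0.054 in DRG and -0.021 in SN between days. Between the tissues on the same day the mean r was 0.024 (-0.193 to 0.252). Since the rats of each array are not stated, these values do not settle whether nerve and ganglia of a number share rats. The test of unequal changes treats all arrays as independent. Of the single values 220 of 261 kept their call with quantile normalization and 176 with normexp, 254 with slide as a random block, and 2109 of 2208 when 1 array was left out. The direction turned for Kcna6 at 4 d (unequal change of -0.18 with slide as a fixed block and within slide), and with normexp for the unequal changes of Kcnip1 at 1 d (-0.17), Kcnip4 at 4 d (0.15) and Kcnk10 at 4 d (-0.04) and for Kcns1 in SN at 14 d (-0.01).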
